A study of Homo sapiens with 6 samples.

Results

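The genes described here build the primary cilium, the single antenna-like projection of a resting cell, and carry cargo along it. They are the 37 genes of a list of intraflagellar transport (IFT), Bardet-Biedl syndrome (BBS) and ciliary gate genes, each read through the array probe sets annotated to that symbol alone. All 37 were on the array, among 19775 genes in all, with 82 probe sets between them. The brightest probe set of each gene gave its value, and the others served as a check.

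The data are 6 Affymetrix arrays of SNU-449, an established human hepatocellular carcinoma cell line. Of these, 3 arrays are labelled as cells with the vector (genotype Ctrl), called the empty vector here, and 3 as cells with USP48 (genotype USP48 OE). USP48 is a deubiquitinase, an enzyme that removes ubiquitin from proteins. The titles speak of transfection and the protocol of lentiviral transduction at a high virus dose followed by puromycin selection of stable cells. The protocol describes the virus for USP48 alone, and does not say whether the selected cells were a pool or a clone. Nothing says that replicates were separate cultures, so a p-value here covers only array-to-array spread, which may be technical. Both groups grew in medium with fetal bovine serum. USP48 itself was not called higher: its brightest probe set was at −0.13 (limma adjusted p = 0.37 over all probe sets), 2 others were called lower at −0.82 and −0.63, and the last 2 were not called at 0.24 and −0.25 (adjusted p = 0.12 and 0.22). The direction thus differed between probe sets, and whether these probe sets lie inside the transferred sequence was not analysed here. The groups are therefore called by their labels.

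Cilia are assembled and maintained by trains of IFT particles. The IFT-B complex, with the motor kinesin-2, carries tubulin and other cargo to the tip, and the IFT-A complex, with the motor dynein-2, returns it. The BBSome, a coat-like complex recruited to membranes by the small GTPase ARL6, ferries membrane proteins such as signalling receptors out of the cilium. A gate of transition zone proteins at the cilium's base decides what may enter. Cilia are present when cells rest and are taken down before mitosis. Hepatocytes usually lack a primary cilium, while cholangiocytes, the cells that line bile ducts, carry it. Whether the cells of these arrays had cilia was not measured.

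Values are log2 signals, and a difference is the mean of the 3 USP48-labelled arrays minus that of the 3 empty vector arrays. A gene is called here when limma's p, adjusted by the Benjamini-Hochberg method over all 19775 genes, was under 0.05. Of the 37 genes, 18 were called, 9 higher and 9 lower, and 19 were not. That is 48.6% of the genes, while 29.8% of all genes were called, 15.7% higher and 14.1% lower. The share of all genes depends on the dim ones. With the dimmest 33.3% left out, 5997 of the genes that remained were called, in place of 5897 of 19775. Of the 37 genes 32 were then left and 17 called, so the shares lay closer together. The groups did not overlap for 21 of the 37 genes (56.8%), against 42.9% of all genes. The median difference was 0.08, and that of all genes 0.05. The median size of the difference, whatever its sign, was 0.30 for these genes and 0.17 for all. IFT80 had the lowest difference at −2.33 and BBS12 the highest at 1.19, and all others lay between −0.63 and 0.94. Of the 37 genes, 8 were called with a difference of at least 0.5 in either direction, and 2 with at least 1. Of all 19775 genes, 2880 (14.6%) and 739 (3.74%) were. The 9 higher genes were IFT20, CLUAP1, IFT43, BBS4, BBS5, BBS7, TTC8, BBS12 and ARL6. The 9 lower ones were IFT80, IFT81, TRAF3IP1, IFT122, WDR35, DYNC2H1, BBS9, TULP3 and TCTN1.

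**Figure D1:**
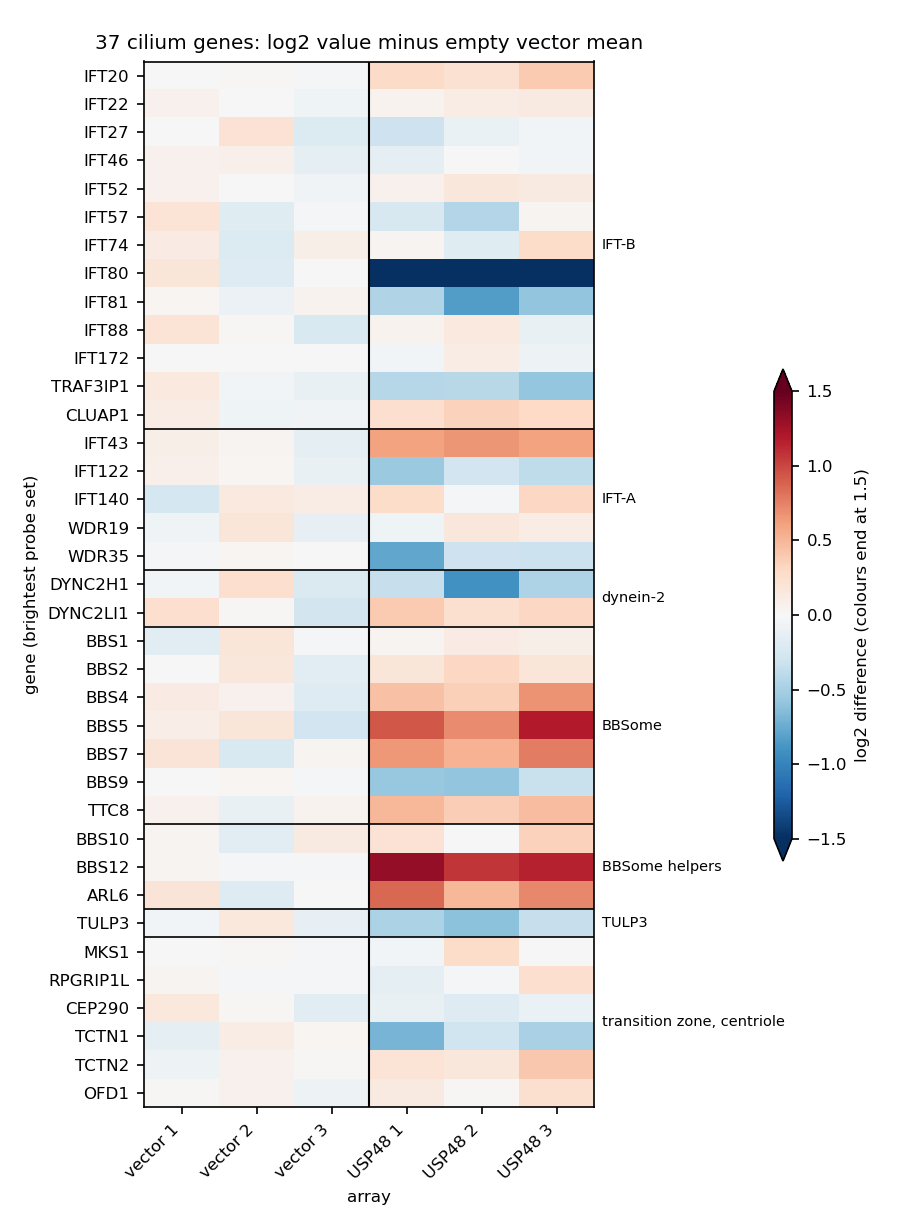
Heat map of the 37 genes (rows, grouped by the complex they belong to) on the 6 arrays (columns), coloured by the log2 value minus the gene's mean over the 3 empty vector arrays, with colours ending at 1.5. IFT80 is dark blue and BBS12 dark red on all 3 USP48-labelled arrays, most of the BBSome rows are red and the transition zone rows are mostly pale.

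The scale of the arrays bears on the balance of directions. The 18 hybridization control probe sets, which read labelled RNA added to each sample before it is hybridized, averaged 9.79 ± 0.04 with the empty vector and 10.09 ± 0.10 under the USP48 label (SD, n = 3 each; two-sided exact permutation p = 0.1, the lowest this design can give). With arrays scaled on these controls every difference falls by 0.29. Of all genes 957 were then called higher and 7495 lower, in place of 3103 and 2794. The cilium genes then had 5 higher (IFT43, BBS5, BBS7, BBS12 and ARL6) and 13 lower, with a median of −0.22 beside −0.24 for all genes. RNA integrity, read as the 5′ minus the 3′ signal of GAPDH, stood at −0.38 ± 0.06 and −0.76 ± 0.48 (SD, n = 3 each; exact permutation p = 0.1), with USP48 overexpression replicate 3 at −1.31. The same measure of ACTB was far lower on all arrays, at −3.46 ± 0.22 and −3.82 ± 0.35 (SD, n = 3 each; exact permutation p = 0.2), and its groups overlapped. Of 8 measured markers of multiciliated cells, which bear many motile cilia, 0 were called, and their mean lay between 3.86 and 3.92 on all 6 arrays. FOXJ1, DNAH5 and DNAI1, which define such cells, had group means between 3.57 and 4.88. Of 5 hepatocyte markers 0 were called and 3 had both means below the median of every array, the lowest of which was 3.75. Albumin (ALB) was among them, at 2.07 and 2.14 in the 2 groups, so a defining marker of the labelled liver origin is near the floor. TTR, at 5.11 and 5.31, was above the array medians, and AFP, at 3.75 and 3.96, was close to them. Of 3 mesenchymal genes FN1 was called higher (8.78 and 10.26), VIM was called lower (11.57 and 11.15) and COL1A1 was not called (7.62 and 7.33). Of 3 leukocyte markers 0 were called. What part these measures have in the differences was not tested.

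Many cilium genes are switched on by RFX factors, which bind a motif called the X-box in their promoters. RefSeq windows of 250 bases before to 50 bases after the gene start (GRCh38.p14) were at hand for 33 of the 37 genes, 38 windows in all. GTTGCC, an arm of the X-box picked after promoters of these genes had been looked at and read on both strands, was in 20 of these 38 windows (52.6%) and in 12.2% of all 35116 windows. It was in those of 18 of the 33 genes: 4 of 9 higher genes, 5 of 7 lower genes and 9 of 17 genes that were not called. The full X-box, read as GTTNCC, 2 free bases and GGNAAC, which contains GTTGCC where the N of its first arm is G, was in 0.49% of all windows and in 1 window of these genes, that of ARL6. Its first base lies 24 bases before the start. The RFX factors that bind such sites are described with the other cilium genes. A match describes letters and does not show a bound site. The bases before the start are shown for 4 genes with the arm, of which 3 were called higher and TULP3 lower, and for BBS12 and IFT80, the genes with the largest changes, whose windows held no such arm. ARL6 and TTC8 each have a second window at another start, not shown. Capitals mark the matches.
ARL6, chr3:97764508-97764757, plus strand: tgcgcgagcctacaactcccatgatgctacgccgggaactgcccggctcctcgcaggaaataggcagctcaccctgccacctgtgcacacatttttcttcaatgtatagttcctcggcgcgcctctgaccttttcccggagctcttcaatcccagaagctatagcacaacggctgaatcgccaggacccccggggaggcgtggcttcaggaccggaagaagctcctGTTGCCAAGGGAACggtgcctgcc
BBS5, chr2:169479244-169479493, plus strand: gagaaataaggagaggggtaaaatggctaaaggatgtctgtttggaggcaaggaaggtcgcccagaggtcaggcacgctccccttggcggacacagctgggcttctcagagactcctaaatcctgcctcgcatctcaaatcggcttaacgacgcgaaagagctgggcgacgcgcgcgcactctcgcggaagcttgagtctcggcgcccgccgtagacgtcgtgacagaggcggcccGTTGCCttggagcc
TTC8, chr14:88824401-88824650, plus strand: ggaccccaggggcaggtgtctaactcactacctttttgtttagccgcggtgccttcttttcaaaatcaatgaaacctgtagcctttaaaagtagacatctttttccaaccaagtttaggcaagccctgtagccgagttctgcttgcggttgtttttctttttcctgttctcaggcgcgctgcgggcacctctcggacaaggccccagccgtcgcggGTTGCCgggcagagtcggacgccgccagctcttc
TULP3, chr12:2890641-2890890, plus strand: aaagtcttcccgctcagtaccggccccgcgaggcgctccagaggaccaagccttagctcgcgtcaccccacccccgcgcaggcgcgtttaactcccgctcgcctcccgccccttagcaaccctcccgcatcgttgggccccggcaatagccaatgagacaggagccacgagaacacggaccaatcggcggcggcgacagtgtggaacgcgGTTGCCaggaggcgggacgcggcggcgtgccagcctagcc
BBS12, chr4:122732454-122732703, plus strand: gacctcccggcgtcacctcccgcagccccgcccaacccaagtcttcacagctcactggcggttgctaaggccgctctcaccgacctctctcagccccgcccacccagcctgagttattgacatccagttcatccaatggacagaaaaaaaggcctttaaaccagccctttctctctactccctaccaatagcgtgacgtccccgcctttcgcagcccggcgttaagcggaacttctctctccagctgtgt
IFT80, chr3:160399226-160399475, minus strand: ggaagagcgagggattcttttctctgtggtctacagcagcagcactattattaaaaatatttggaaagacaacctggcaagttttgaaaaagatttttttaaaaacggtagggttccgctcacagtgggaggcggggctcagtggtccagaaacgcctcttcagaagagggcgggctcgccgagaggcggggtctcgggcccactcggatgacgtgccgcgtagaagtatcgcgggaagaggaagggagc

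Of the 13 IFT-B genes, 2 rose, 3 fell and 8 were not called (median −0.01). Of all genes 15.7% were called higher and 14.1% lower, the shares to set beside this count and that of each complex below. IFT80, an outer subunit of the particle whose inherited defects cause a skeletal dysplasia of the rib cage, had the lowest difference of all 37 genes. Its brightest probe set, 1558956_s_at, was at 5.62, 5.24 and 5.44 with the empty vector and at 2.71, 3.09 and 3.50 under the USP48 label. Each USP48-labelled array lay far below each empty vector array, and replicate 3 was the least low. The difference was −2.33 (SE 0.18, limma adjusted p = 6.4e-06). It stayed between −2.54 and −2.14 with any 1 array left out, and the call held under all 15 alternatives. The USP48-labelled mean of 3.10 is below the median of every array, where a fold cannot be read with confidence, so none is given.

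The 4 probe sets of IFT80 fell into pairs. 226098_at fell from 5.20 ± 0.09 to 3.16 ± 0.48 (SD, n = 3 each), a difference of −2.05 (limma adjusted p = 3.2e-05 over all probe sets). 1564231_at, at 2.40 ± 0.04 and 2.72 ± 0.28, and 240251_at, at 1.17 ± 0.21 and 1.04 ± 0.15, were dim in both groups and were not called (adjusted p = 0.11 and 0.48 by limma). With the mean of all 4 probe sets the difference was −1.05. So the 2 bright probe sets fell, and the 2 dim ones lay below the median of every array in both groups.

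IFT80 lies beside SMC4 and TRIM59 on the chromosome, and RefSeq lists a read-through gene that joins TRIM59 and IFT80. Probe set 235476_at, annotated to both TRIM59 and IFT80 and so outside the rule for members, was at 6.91, 6.78 and 6.67 with the empty vector and at 6.05, 5.73 and 6.12 under the USP48 label. It fell by 0.82 (limma adjusted p = 0.00052 over all probe sets). TRIM59, a tripartite motif protein, fell by 0.40 (adjusted p = 0.015 by limma), a call that ended when either empty vector replicate 3 or USP48 overexpression replicate 1 was left out (adjusted p = 0.059 and 0.061). SMC4, a condensin subunit that compacts mitotic chromosomes and was picked after its value was seen, fell by 1.47 from 8.56 ± 0.06 to 7.09 ± 0.18 (SD, n = 3 each; limma adjusted p = 4.0e-06). IFT80, TRIM59 and SMC4 were each lower in the USP48-labelled arrays, IFT80 by the most, where 14.1% of all genes were called lower. Of the 3 probe sets of SMC4 only the brightest is given, and other genes nearby are not given here. Signal from the IFT80 transcripts and from the read-through could not be told apart with these probe sets.

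**Figure D2:**
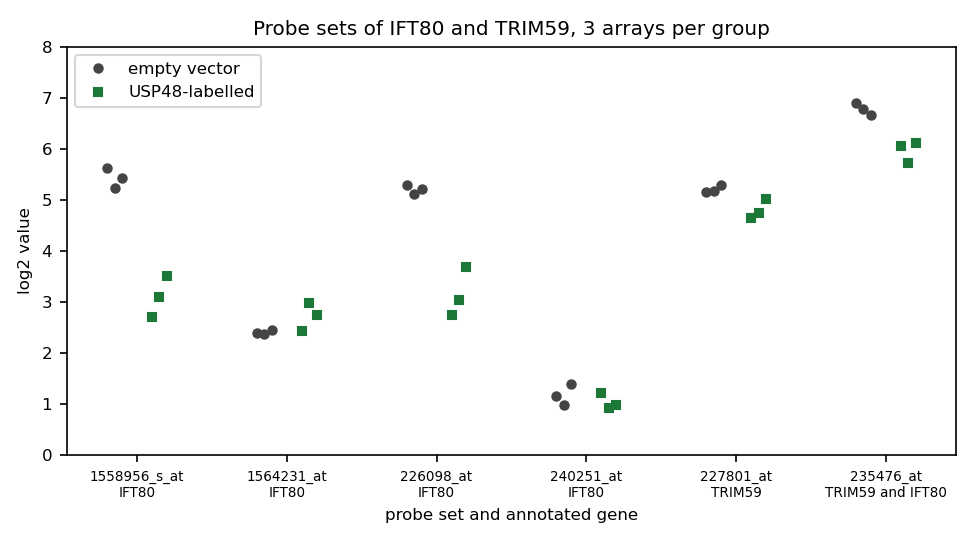
Log2 values (vertical axis) of the 4 probe sets of IFT80, the probe set of TRIM59 and the probe set annotated to both (horizontal axis) on the 3 empty vector arrays (circles) and 3 USP48-labelled arrays (squares). 1558956_s_at and 226098_at differ by −2.33 and −2.05, while 1564231_at and 240251_at are dim in both groups.

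IFT81 was the next lowest of all 37 genes. With IFT74 it forms the module that holds tubulin as cargo. Its brightest probe set was at 5.48, 5.36 and 5.51 with the empty vector and at 5.001, 4.62 and 4.85 under the USP48 label. The groups did not overlap, and the fall of 0.63 (SE 0.11, 1.54-fold, limma adjusted p = 0.0013) had a 95% interval from −0.87 to −0.39. The other probe set of IFT81 was at 0.21 and was not called. IFT74 itself, dim in both groups at 2.95 ± 0.18 and 3.00 ± 0.23 (SD, n = 3 each), was not called.

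TRAF3IP1 (IFT54), which binds microtubules and pairs with IFT20, fell by 0.47 from 6.06 ± 0.13 to 5.59 ± 0.09 (SD, n = 3 each; adjusted p = 0.0039 by limma). Its other probe set was at 0.07, and with the mean of both it was at −0.20 and no longer called (adjusted p = 0.16). IFT20, the subunit that also sits at the Golgi, rose by 0.30 from 8.75 ± 0.02 to 9.06 ± 0.08 (SD, n = 3 each; limma adjusted p = 0.019). CLUAP1 (IFT38), which pairs with IFT57, rose by 0.30 from 5.64 ± 0.10 to 5.94 ± 0.05 (SD, n = 3 each; adjusted p = 0.025 by limma). These rises depend on the scale and on single arrays: on the scale of the hybridization controls both genes were at 0.01. Leaving out replicate 1 or 3 of the empty vector, or replicate 3 of USP48 overexpression, ended the call of IFT20 (adjusted p = 0.057, 0.056 and 0.051). Leaving out replicate 2 or 3 of the empty vector, or replicate 2 of USP48 overexpression, ended that of CLUAP1 (adjusted p = 0.096, 0.078 and 0.070). CLUAP1 was also at 0.09 when its probe sets were averaged (adjusted p = 0.41), among which 204577_s_at was at −0.22.

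The other 8 IFT-B genes stayed within a narrow range. The small GTPases IFT22 and IFT27 were at 0.10 and −0.15, the core subunits IFT46, IFT52 and IFT88 at −0.06, 0.13 and 0.03, IFT57 at −0.21, IFT74 at 0.05, and IFT172, the longest subunit, at −0.01. Their 95% intervals reached from −0.51 for IFT57 to 0.33 for IFT74. On the scale of the hybridization controls IFT27, IFT46 and IFT57 were called lower, at −0.44, −0.35 and −0.51 (limma adjusted p = 0.0081, 0.021 and 0.0060).

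Of the 5 IFT-A genes, 1 rose, 2 fell and 2 were not called. IFT43, a small subunit that binds WDR35, was at 7.25, 7.20 and 7.03 with the empty vector and at 7.76, 7.82 and 7.76 under the USP48 label. The 3 USP48-labelled arrays lay close together and all above the empty vector arrays. The rise was 0.62 (SE 0.09, 1.54-fold, limma adjusted p = 0.00040). A second probe set, 226195_at, rose by 0.66, a dim one, 1568699_at, was at 0.16, and the call held under all 15 alternatives, at 0.33 on the scale of the hybridization controls.

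IFT122 and WDR35 (IFT121), both with WD40 repeats, fell. IFT122 went from 6.15 ± 0.10 to 5.74 ± 0.14 (−0.41, adjusted p = 0.0090), and WDR35 from 4.04 ± 0.03 to 3.57 ± 0.27 (−0.47, adjusted p = 0.015; SD, n = 3 each; limma). The USP48-labelled mean of WDR35 lies below the median of every array. The second brightest probe sets of IFT122 and WDR35 were at 0.21 and 0.19 and were not called. With the mean of all probe sets neither gene was called (−0.14 each, adjusted p = 0.17 and 0.39), and WDR35 was not called without empty vector replicate 2 (adjusted p = 0.054). IFT140 and WDR19 (IFT144), the other large subunits, were at 0.19 and 0.08 and were not called. TULP3, which binds IFT-A and brings receptors into the cilium, fell by 0.48 from 7.34 ± 0.15 to 6.86 ± 0.13 (SD, n = 3 each; limma adjusted p = 0.0055). Its dimmer probe set was at −0.19 and was not called.

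The 2 genes of dynein-2, the motor of the return journey, differed from each other. DYNC2H1, the motor's heavy chain, was at 3.98, 4.27 and 3.80 with the empty vector and at 3.67, 3.11 and 3.56 under the USP48 label. The highest USP48-labelled array was just under the lowest empty vector array. The fall of 0.57 (SE 0.16, adjusted p = 0.018 by limma) had a 95% interval from −0.92 to −0.22. The USP48-labelled mean of the gene, 3.45, lies below the median of every array. Leaving out replicate 2 of the empty vector or of USP48 overexpression ended the call (−0.44 and −0.40, adjusted p = 0.082 and 0.060), as did averaging its probe sets (−0.18, adjusted p = 0.085). The 2 dimmer probe sets were at −0.06 and 0.09.

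DYNC2LI1, the light intermediate chain that steadies the heavy chain, had probe sets called in opposite directions. Its brightest, 203762_s_at, was at 6.19, 5.96 and 5.67 and then 6.33, 6.19 and 6.25, where the groups overlap, and was not called (0.32, limma adjusted p = 0.083). 203763_at rose from 4.98, 4.83 and 4.62 to 5.41, 5.26 and 5.35, and 1554324_s_at from 2.87, 2.77 and 2.60 to 3.39, 3.25 and 3.39. These rises were 0.53 and 0.60 (limma adjusted p = 0.0046 and 0.0013 over all probe sets). 241757_x_at fell from 3.92, 4.00 and 3.79 to 3.48, 3.64 and 3.56, by 0.34 (limma adjusted p = 0.025). The suffix of that last probe set marks probes that may also match other transcripts. With the mean of all 4 the gene was called at 0.28 (adjusted p = 0.045), and without empty vector replicate 1 at 0.44 (adjusted p = 0.023).

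Of the 7 BBSome subunits on the list, 4 rose, 1 fell and 2 were not called (median 0.44, against 0.05 for all genes). Of the 3 genes that help it assemble or reach the membrane, 2 rose, 0 fell and 1 was not called. BBS5, a subunit with membrane-binding domains, was at 2.31, 2.39 and 1.92 with the empty vector and at 3.13, 2.91 and 3.40 under the USP48 label. All USP48-labelled arrays were above all empty vector arrays, and both means (2.21 and 3.15) lie below the median of every array. The rise was 0.94 (SE 0.15, limma adjusted p = 0.00072), on the only probe set of the gene.

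BBS7, a propeller subunit that pairs with BBS2, was at 5.06, 4.65 and 4.91 and then at 5.52, 5.39 and 5.64. The groups did not overlap, with a rise of 0.65 (SE 0.12, 1.56-fold, adjusted p = 0.0018 by limma). Its second probe set, 235007_at, was at −0.04, and with the mean of both the gene was at 0.30 and not called (adjusted p = 0.056). BBS4, with repeats that link subunits, rose by 0.49 from 6.60 ± 0.17 to 7.08 ± 0.16 (SD, n = 3 each; limma adjusted p = 0.0081), and its second probe set rose by 0.41. TTC8 (BBS8), of the same repeat family, rose by 0.44 from 5.97 ± 0.10 to 6.42 ± 0.07 (SD, n = 3 each; limma adjusted p = 0.0032). On the scale of the hybridization controls BBS4 and TTC8 were at 0.19 and 0.15 and were not called (adjusted p = 0.17 and 0.30). BBS1, the subunit that ARL6 binds, and BBS2 were at 0.08 and 0.22 and were not called (limma adjusted p = 0.58 and 0.13). The 95% interval of BBS2 reached from 0.00027 to 0.45.

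BBS9, a scaffold subunit, was the 1 BBSome gene that fell, and its probe sets disagreed. Its brightest probe set, 37549_g_at, was at 5.20, 5.23 and 5.16 with the empty vector and at 4.63, 4.61 and 4.86 under the USP48 label, with no overlap and a fall of 0.50 (limma adjusted p = 0.0022). 209958_s_at went from 4.99, 5.10 and 4.75 to 4.41, 4.59 and 4.53, a fall of 0.44 (limma adjusted p = 0.014 over all probe sets). 37547_at, a dim probe set, fell by 0.46, and 216239_at was at −0.27 and was not called. 1555555_at went the other way, from 3.24, 2.73 and 3.05 to 3.36, 3.48 and 3.62, a rise of 0.48 (limma adjusted p = 0.022 over all probe sets). With the mean of all 5 the gene was at −0.24 and not called (adjusted p = 0.070).

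BBS12 had the highest difference of all 37 genes. It encodes a chaperonin-like protein that helps BBSome subunits fold into a complex. It was at 3.05, 2.99 and 2.99 with the empty vector and at 4.33, 4.09 and 4.17 under the USP48 label. Every USP48-labelled array was above every empty vector array by over 1 unit. The empty vector arrays hardly differed from each other, but replicates 2 and 3 held an identical value, at a dim level. The rise was 1.19 (SE 0.09, limma adjusted p = 6.5e-06), on the only probe set of the gene. It was 0.89 on the scale of the hybridization controls. The empty vector mean lies below the median of every array, so no fold is given. BBS10, of the same chaperonin-like family, was dim in both groups and at 0.19 (adjusted p = 0.24 by limma).

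ARL6 (BBS3), the GTPase that brings the BBSome to membranes and whose promoter held both arms of the X-box, was at 5.69, 5.30 and 5.50 and then at 6.35, 6.00 and 6.22. The lowest USP48-labelled array was above the highest empty vector array. The rise was 0.69 (SE 0.12, 1.62-fold, limma adjusted p = 0.0015), and 0.40 on the scale of the hybridization controls. Its second probe set, 235320_at, was dim and at 0.03.

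**Figure D3:**
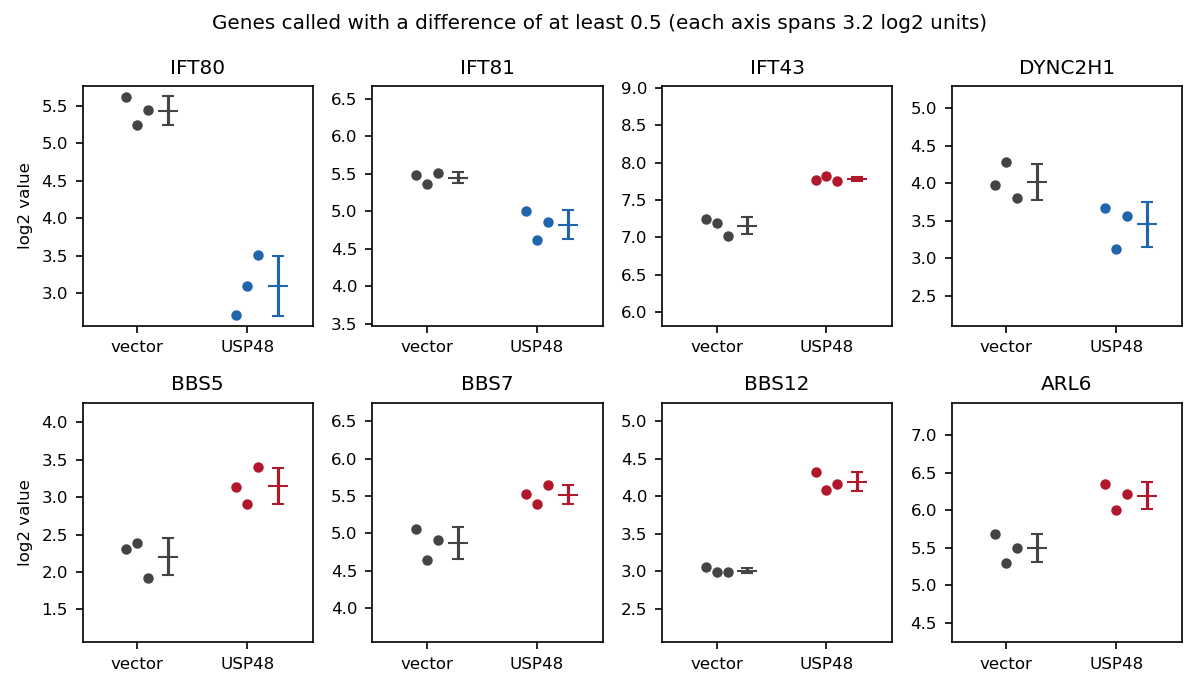
Log2 values (vertical axes, each spanning 3.2 units) of the 8 genes that were called with a difference of at least 0.5, with a point per array, 3 empty vector arrays at the left and 3 USP48-labelled arrays at the right, and bars for the mean ± SD (n = 3). The groups do not overlap in any of the 8 panels; IFT80, IFT81 and DYNC2H1 are lower and the other 5 higher.

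Of the 6 transition zone and centriole genes, 0 rose, 1 fell and 5 were not called (median 0.05). TCTN1, a tectonic protein of the ciliary gate, fell by 0.50 from 6.52 ± 0.13 to 6.02 ± 0.20 (SD, n = 3 each; limma adjusted p = 0.0075), and its dimmer probe set was at 0.02. Its relative TCTN2 was at 0.26 and missed the threshold (limma adjusted p = 0.058), though its groups did not overlap. It was called higher when its 2 probe sets were averaged (0.28, adjusted p = 0.016), after quantile normalization (adjusted p = 0.034), with an intensity trend and robust prior (0.035) and without the dimmest genes (0.033), and was at −0.03 on the scale of the hybridization controls. MKS1, which works with the tectonic proteins at the gate, was at 0.07. RPGRIP1L, a scaffold of the gate, was dim and at 0.03.

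CEP290, which links the microtubules of the gate to the membrane, was at −0.14 and was not called (95% interval −0.36 to 0.09). On the scale of the hybridization controls it was called lower, at −0.43. OFD1, which caps the distal end of the centriole, was not called with its brightest probe set (8.36 ± 0.07 and 8.49 ± 0.11, SD, n = 3 each; difference 0.13). Its second, dim probe set, 241751_at, was at 3.36, 3.40 and 3.56 and then at 2.55, 2.53 and 2.86, with no overlap, and fell by 0.79 (limma adjusted p = 0.00044 over all probe sets). With the mean of both OFD1 was called lower (−0.33, adjusted p = 0.015).

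Across all 82 probe sets of the 37 genes, 14 were called higher and 14 lower, 34.1% in all, while 24.3% of all probe sets on the array were called, 10.6% higher and 13.8% lower. Of the 28 genes with several probe sets, DYNC2LI1 and BBS9 (7.14%) had calls in both directions, against 5.56% of 10523 such genes on the array. Of the 18 called genes, 14 have several probe sets. For 10 of these 14 another probe set had a difference of the other sign, and for 4 (IFT80, IFT43, BBS4 and BBS9) another was called in the same direction. Where on the transcript each probe set lies was not analysed here.

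**Figure D4:**
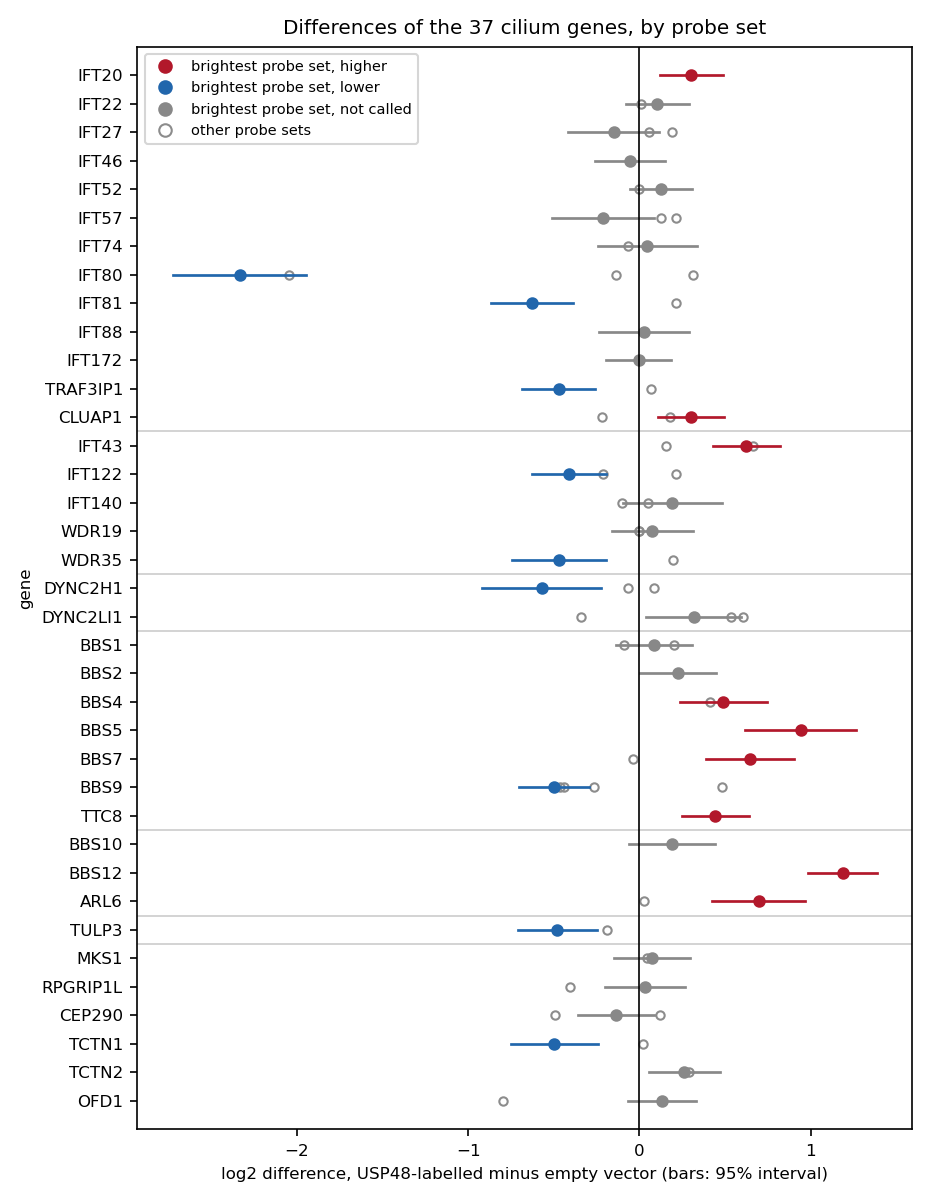
Log2 difference between USP48-labelled and empty vector arrays (horizontal axis) for each of the 37 genes (vertical axis), with filled circles and 95% intervals for the brightest probe set, coloured by its call, and open circles for the other probe sets. IFT80 at −2.33 and BBS12 at 1.19 stand at the ends, and open circles lie on the other side of 0 for 10 of the 18 called genes.

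The wider cilium machinery was read from lists of 68 further genes, of which 62 were measured: 11 rose and 17 fell. These 28 genes are 45.2% of those measured, beside 29.8% of all genes (15.7% higher and 14.1% lower). The same shares of all genes are the ones to set beside each list below. On the scale of the hybridization controls 4 were higher and 31 lower. Among 3 other IFT subunits 1 rose, IFT56 (TTC26), by 0.44 (limma adjusted p = 0.0065; not called on the scale of the hybridization controls). The kinesin-2 motor subunits KIF3A, KIF3B and KIFAP3 were not called, and in their list of 9 motor genes 1 fell, the dynein-2 intermediate chain DYNC2I2 (WDR34), by 0.44 (limma adjusted p = 0.0051).

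Among 9 other BBSome subunits and regulators of ciliary membrane traffic 4 rose and 1 fell. LZTFL1, which controls how the BBSome enters the cilium, rose by 0.81 (adjusted p = 0.00013), and its 3 other probe sets lay between −0.11 and 0.24. BBIP1, the smallest BBSome subunit, rose by 0.51 (adjusted p = 0.0058), but it was at −0.17 with the mean of its 7 probe sets and −0.81 with the second brightest. ARL3, which releases lipid-linked cargo inside the cilium, fell by 0.50 (adjusted p = 0.0090). RAB23, a negative regulator of hedgehog signalling, rose by 0.34 (adjusted p = 0.016; all by limma), a call that ended without replicate 1 of the empty vector or replicate 2 of USP48 overexpression (adjusted p = 0.055 each), and its 2 other probe sets were called in opposite directions, at 0.65 and −0.58.

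Among 15 other transition zone genes 4 rose and 5 fell. RPGR, a regulator of small GTPases at the gate, rose by 1.17 (adjusted p = 0.00055) on its only probe set. Its empty vector mean of 3.22 lies below the median of every array. IQCB1 (NPHP5), a partner of CEP290, rose by 0.92 (adjusted p = 3.2e-05). CC2D2A fell by 0.92 (adjusted p = 4.7e-05), though its 3 other probe sets lay between 0.11 and 0.17. AHI1 (jouberin) fell by 0.86 (adjusted p = 0.00094; all by limma). Its 4 other probe sets lay between −0.62 and 0.01, and 1 of them was called lower.

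Among 11 genes of the basal body and of the start of cilium assembly 0 rose and 5 fell, where 15.7% of all genes rose and 14.1% fell. CEP97, which with CCP110 caps the mother centriole and holds back cilium growth, fell by 1.37 from 5.01 ± 0.17 to 3.64 ± 0.12 (SD, n = 3 each; limma adjusted p = 7.4e-06). Its USP48-labelled mean lies below the median of every array. The suffix of this brightest probe set, _x_at, marks probes that may also match other transcripts. The 2 other probe sets of CEP97 fell by less, at −0.50 and −0.10, and only 1 of them was called lower. PCM1, the scaffold of centriolar satellites, fell by 1.05 (limma adjusted p = 1.4e-05), and all 5 of its other probe sets were below 0. CCP110 fell by 0.40 and CEP131 by 0.33 (limma adjusted p = 0.0043 and 0.034). The other probe set of CCP110 was at −0.29 and was not called. CEP131 lost its call after quantile normalization and in 4 of the 6 fits with 1 array left out. These fits lacked replicate 1 or 2 of the empty vector, or replicate 1 or 3 of USP48 overexpression.

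Among 7 genes of cilium disassembly 2 rose and 3 fell. The mitotic kinases NEK2, AURKA and PLK1, which also take part in taking cilia down, fell by 1.09, 1.07 and 1.01 (limma adjusted p = 5.0e-05, 1.5e-05 and 7.9e-05). Of the 2 other probe sets of AURKA, at −0.86 and −0.21, 1 was called lower. NEDD9, the scaffold that activates AURKA at the cilium's base, rose by 0.91 (limma adjusted p = 0.00095). Among 7 RFX and FOXJ1 transcription factor genes 1 fell, RFX7, by 0.68 (limma adjusted p = 0.00045). The other probe set of RFX7 was at −0.21 and was not called. RFX1, RFX2, RFX3, RFX4, RFX5 and FOXJ1 were not called, with differences between −0.21 and 0.31.

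**Figure D5:**
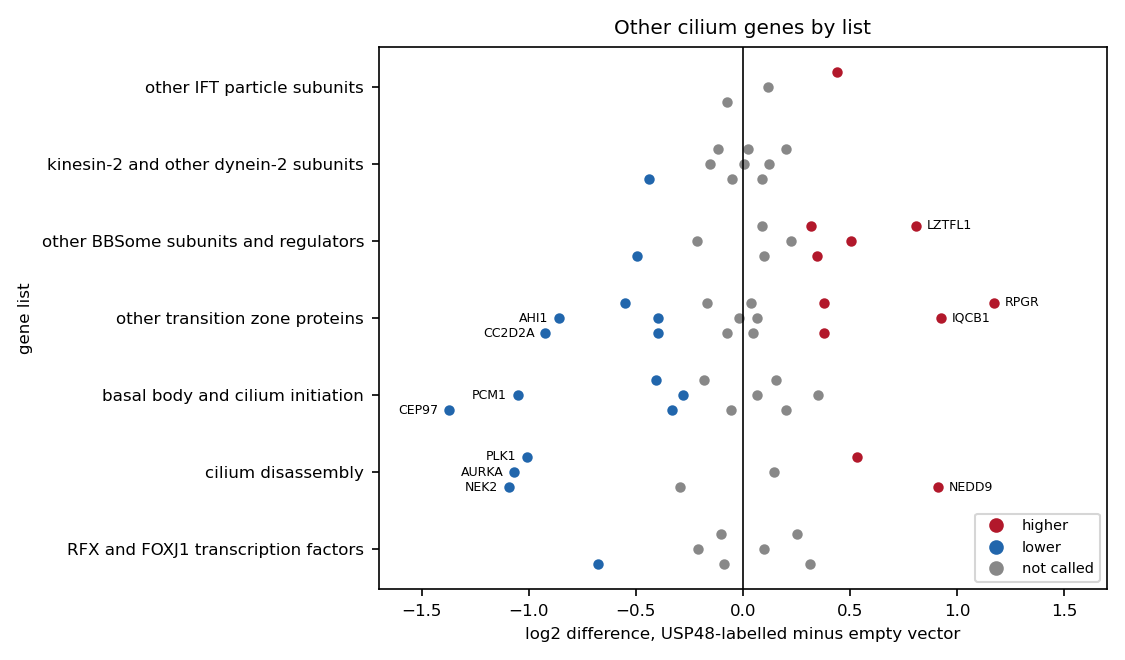
Log2 difference (horizontal axis) of the measured further cilium genes, a point per gene in rows by list, coloured by call. CEP97 at −1.37 and the kinases NEK2, AURKA and PLK1 at −1.09 to −1.01 lie at the left, and RPGR at 1.17 at the right.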

How the data were processed

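The authors deposited 1 log2 value per probe set for each of 6 arrays, by RMA according to the submitters' processing notes, whose version and settings are not stated there. Values below 1 are unusual for RMA, so dim values may carry another background step. Values ran from 0.190 to 13.2 and array medians from 3.75 to 3.79. RMA equalises arrays, so a change in total RNA cannot be seen. Detection calls were not used, and the number of arrays, 3 per group, limits the precision. Fewer cells with a transcript and less transcript per cell cannot be told apart.

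Of 54675 probe sets, 41091 named 1 gene in the platform annotation (1801 several, 11721 none, 62 controls), giving 19775 genes by the brightest probe set. Groups, taken from the titles, were set against each other in R 4.3.3 with limma 3.58.1 (a linear model with moderated variances, two-sided, adjusted by Benjamini and Hochberg's method over all genes), and every probe set was fitted likewise. No filter on dim genes was used. The test was tested on simulated data. Single measures had an exact permutation test.

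All genes of the list are named. Values per array are given for genes called with a difference of at least 0.5 and for genes with probe sets called in opposite directions. Of each further list up to 4 called genes with the largest differences are named, and others after their values were seen. The genes and lists were chosen with earlier results of these data known. Same-numbered arrays were checked for pairing (correlations of deviations 0.0042, 0.17 and 0.015), which the labels do not state, so no block was used. Alternatives are in the closing section. Figures were drawn with matplotlib 3.10.9.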

Additional observations from a re-analysis of the deposited data

How the results depend on the processing

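Of the 18 calls among the 37 genes, 4 (IFT80, IFT43, BBS5 and BBS12) held under every alternative that could change them. BBS5 and BBS12 fell out with the dimmest 33.3% of genes and have 1 probe set each, so the alternatives on probe sets say nothing of them. With any 1 array left out 14 of the 18 held. The number called was 10 of 37 with the second brightest probe set, 7 higher and 3 lower. With that setting 4771 of all 19775 genes were called, a share close to that of the 37. Averaging every probe set of a gene gave 14, 9 higher and 5 lower, beside 5411 of all 19775 genes. An adjusted p under 0.01 gave 14. Scaling on the hybridization controls also gave 18, 5 higher and 13 lower, but not the same genes: IFT20, CLUAP1, BBS4 and TTC8 lost their calls and IFT27, IFT46, IFT57 and CEP290 were called lower. With 1 array left out 15 to 18 were called, 7 to 9 higher and 7 to 9 lower. Among genes called by either value, the sign turned with the second brightest probe set for IFT81 (0.21), TRAF3IP1 (0.070), IFT122 (0.21), WDR35 (0.19), BBS7 (−0.041), TCTN1 (0.022), OFD1 (−0.79), CC2D2A (0.11) and BBIP1 (−0.81), and with the mean of all probe sets for OFD1 (−0.33) and BBIP1 (−0.17). It also turned, with no call on either side, for IFT27, IFT57, IFT74 and RPGRIP1L under both and for IFT52 and WDR19 under the second brightest. The cause was not tested. Over all genes 5897 were called, 3847 at an adjusted p under 0.01 and 4547 to 5673 with 1 array left out. Of the further cilium genes 28 were called, and 23 to 28 with 1 array left out. Of the 82 probe sets 28 were called, 17 at an adjusted p under 0.01 and 19 to 27 with 1 array left out. The replicate number as a block, which the check of pairing did not support, left 18 calls among the 37 genes, 28 among the further ones, 26 among the probe sets and 5824 over all genes. Leaving out dim genes, centring on medians, quantile normalization and a robust prior with an intensity trend gave 17 to 20 calls. When the dimmest 33.3% of the 19775 genes were left out, 32 of the 37 remained and 17 of them were called. Over all genes that remained 5997 were then called. The background share was thus higher than with every gene kept, and closer to that of the cilium genes. For dim genes the signal over background limits what can be read: 4 of the 37 had both group means, and 4 had 1, below the median of every array.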
